A study of Danio rerio with 24 samples.

Results

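Zebrafish embryos at the blastula stage were compared at 3.5 hours post fertilization (hpf) after exposure to tetrabromobisphenol A (TBBPA), a brominated flame retardant, or to its solvent dimethyl sulfoxide (DMSO). All embryos were wildtype and were collected whole. The TBBPA group was held in 40 µM TBBPA with 0.1% DMSO from 0.75 hpf until collection at 3.5 hpf, and the DMSO group in 0.1% DMSO alone over the same hours. Each group holds 4 RNA sequencing libraries of total RNA. The study also collected both groups at 2 and 4.5 hpf, which makes 24 libraries in all, and those are used here only as a time scale and for 1 comparison with the later stage. Levels are given in FPKM (sequenced fragments divided by gene length in kilobases and by library size), so that levels of different genes can be set side by side. Of 31901 genes in the tables, 11859 reached 1 FPKM in at least 4 of the 8 libraries and were tested (11536 of them protein coding).

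At this stage the embryo passes from maternal to zygotic control. The egg supplies a large store of transcripts, which are cleared in part as the embryo's own genome is switched on, a transition driven in zebrafish by the maternal factors Nanog, Pou5f3 and Sox19b. The first genes to be transcribed tend to be short, and many encode transcription factors, signalling molecules and replication-type histones. Damaged or stressed cells switch on another set of genes, whose products arrest growth, repair DNA or promote apoptosis.

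The libraries held 10.6 to 15.2 M assigned reads in DMSO and 13.5 to 17.3 M in TBBPA (exact permutation p = 0.114, 2-sided, n = 4 per group). The first principal component took 47.3% of the variance and separated the groups, with DMSO at −15.8 to −10.2 and TBBPA at 9.77 to 18.4. Blastula genes were high in all 8 libraries, and of the 3 activators of the zygotic genome nanog (984 ± 8.6 to 907 ± 17) and pou5f3 (518 ± 3.6 to 461 ± 11) were called lower in TBBPA while sox19b did not pass (445 ± 7.5 and 477 ± 20; limma, defined below). Of markers of differentiated tissues, the globin genes hbae1.1 and hbbe1.1, the lens genes cryaa and crygm2d1 and the blood regulator gata1a were at 0 in every library, and the highest were the pigment gene tyr (3.28 FPKM in DMSO and 2.80 in TBBPA) and the muscle gene tnnt3a (1.62 and 2.07). TBBPA replicate 4 and DMSO replicate 1 stood apart on the second component (10.8% of the variance), at −11.1 and 11.2 against −5.01 to 4.60 in the other 6, and they also differed from their groups in the levels of very long transcripts, described below. Whether the replicates are separate clutches or separate exposures is not in the labels, so every p-value measures the spread between these libraries, which may be technical. In whole embryos, fewer cells of a type and less RNA per cell cannot be told apart.

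Each gene was tested with limma, which fits a linear model per gene with variances moderated across genes, on log2(FPKM+1), and a gene was called at a Benjamini-Hochberg adjusted p under 0.05. Below, a gene "rose" or "fell" if it was called higher or lower in TBBPA than in DMSO. The test called 1424 genes, or 12.0% of those tested. Of these 791 rose (6.67%) and 633 fell (5.34%), and without TBBPA replicate 2 the count was 933. Counts of calls in every list, family or region below are to be read beside these shares. Falls were the larger changes. On the tested scale of FPKM+1, 116 genes fell and 16 rose by more than 2-fold, and 295 fell and 55 rose by more than 1.5-fold. This scale understates the fold changes of low genes, so these are not counts of fold changes in FPKM. Most rises were small, with a median log2 difference of 0.26 (−0.51 for falls and 0.01 for all tested genes). A 2-fold difference in FPKM+1 in either direction lay outside the 95% confidence interval of 96.8% of tested genes. For low genes that limit is a larger fold change in FPKM. In 2044 tested genes (17.2%) every library of 1 group lay above every library of the other, while 12.0% were called. Such complete separation was thus common, and alone it does not set a gene apart. A few genes entered the test through 1 group only, 43 by their DMSO libraries and 15 by their TBBPA libraries, and such genes had to differ. Of those named below, spaca4l, chrd, smad7, sp5l, cxcl12a and nfkbiaa were tested through DMSO alone, as were some zinc finger genes named with their family. Sesn3, her12, e2f7 and ctsh were tested through TBBPA alone. The separation and direction of all these genes are no support for a change. Without all genes of this kind 594 falls and 782 rises were left. Just inside the level filter lay txlnbb, sntg2 and eda, which reached 1.0006 to 1.0017 FPKM in the last of the 4 libraries that the rule needs, and just outside lay 1 of the copies of hist1h2a11, slc16a7 and CR936977.2 (0.998, 0.997 and 0.996).

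Genes of growth arrest, repair and apoptosis differed more often upward than downward in exposed embryos. Of 44 tested genes of this list 15 rose and 1 fell, a share of risen genes set beside 6.67% of all genes, with a median log2 difference of 0.08 against 0.01 for all genes. Another 9 members were below the level filter. Without sesn3 and bida, which were tested through 1 group alone, 14 of 42 rose and 1 fell.

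The ubiquitin ligase gene mdm2 and its relative mdm4 rose. Mdm2 (ENSDARG00000033443, chromosome 4, 23125689 to 23136195 in the tables, whose genome build is not given in the sources used here) lay at 4.17, 3.42, 3.69 and 2.99 FPKM in DMSO and at 7.21, 7.61, 8.93 and 8.08 in TBBPA. The groups did not overlap, and the log2 difference was 0.97 (SE 0.09, limma adjusted p = 0.00015). Mdm4, its more abundant relative, lay at 77.2 ± 2.7 and 90.1 ± 5.9 (mean ± SD, n = 4, DMSO first as in all pairs below), a call that was lost in a fit over the 16 libraries of 3.5 and 4.5 hpf (adjusted p = 0.0622, limma).

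Among the 22 genes with roles in growth arrest and repair 10 rose. Cdkn1a, which encodes the p21 inhibitor of cyclin-dependent kinases, rose from 4.39 ± 1.03 to 30.8 ± 1.4 FPKM and phlda3, an inhibitor of Akt signalling, from 0.789 ± 0.49 to 9.61 ± 2.1. Tp53inp1, which encodes a stress-induced nuclear protein, lay at 5.73, 4.94, 4.56 and 6.35 FPKM in DMSO and at 15.3, 15.9, 17.3 and 17.6 in TBBPA, a log2 difference of 1.46 (SE 0.09, adjusted p = 1.39e-05, limma). All 4 TBBPA libraries were above all 4 DMSO libraries. The sestrins, stress-induced inhibitors of growth signalling, rose from different starting levels: sesn1 from 5.31 ± 0.15 to 9.74 ± 0.74, and sesn3, which reached the level filter in TBBPA alone, from 0.379 ± 0.28 to 3.51 ± 0.82. Plk3, a stress kinase gene, rose less, from 64.0 ± 0.79 to 75.3 ± 1.05. The gene listed as CABZ01079011.1, which an identifier table pairs with the symbol rps27l, rose from 8.14 ± 1.0 to 14.1 ± 1.7. The growth arrest genes of the Gadd45 family divided. Gadd45aa was at 1.93, 0.815, 0.730 and 0.756 FPKM in DMSO, where replicate 1 stood above the others, and at 16.7, 14.9, 16.1 and 15.8 in TBBPA. Gadd45ga also rose (2.76 ± 0.50 to 5.31 ± 0.38), whereas gadd45ba fell from 18.2 ± 1.2 to 10.5 ± 1.04, and gadd45bb did not pass (40.4 ± 3.9 and 38.4 ± 2.7).

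Of 18 tested genes of apoptosis 3 rose. Bbc3, which encodes the pro-apoptotic protein Puma, had the largest difference of these, with 1.65, 0.905, 0.577 and 0.889 FPKM in DMSO and 8.203, 6.78, 7.96 and 8.03 in TBBPA. Baxa, an effector of mitochondrial outer membrane permeabilization, rose from 40.0 ± 1.1 to 44.2 ± 0.86, and mcl1a, an anti-apoptotic relative, from 82.7 ± 0.95 to 98.7 ± 3.2. Abundant maternal members of the list did not pass, among them btg2 (374 ± 11 and 367 ± 6.2), ppm1da (76.1 ± 1.3 and 74.0 ± 1.9) and ccng1 (73.1 ± 6.0 and 71.4 ± 1.7). A pair of genes outside the list, named after their values were seen, rose too: polh, a translesion DNA polymerase gene, from 1.44 ± 0.16 to 3.08 ± 0.87 FPKM, and e2f7, a repressor of cell cycle genes that was tested through TBBPA alone, from 0.545 ± 0.11 to 1.97 ± 0.29.

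**Figure D1:**
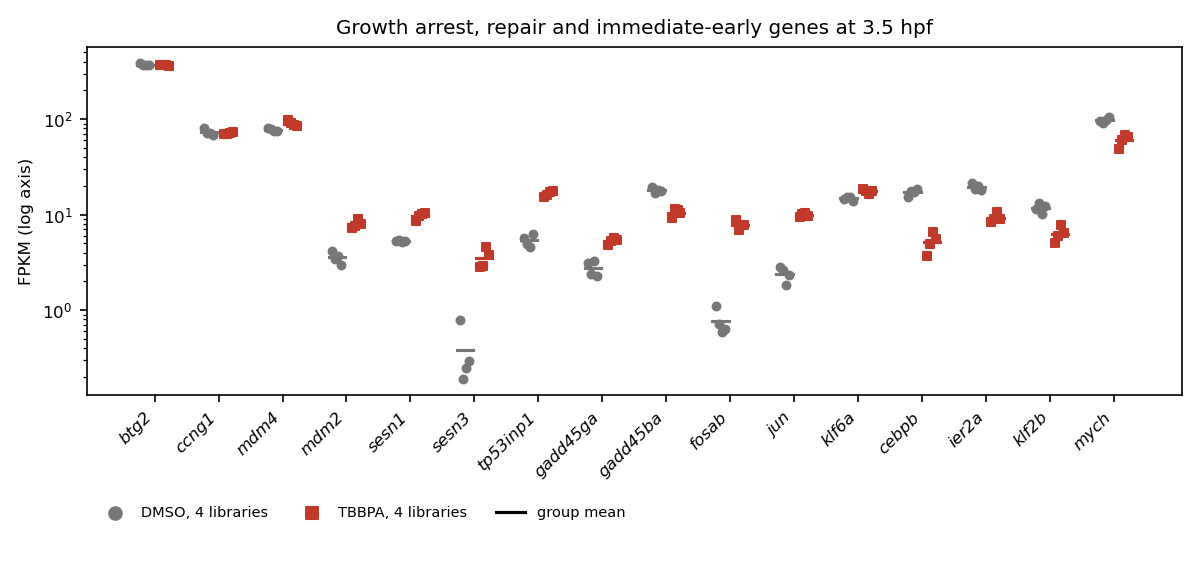
FPKM on a log axis of 16 genes of the growth arrest, repair and apoptosis list and the immediate-early list at 3.5 hpf, with 1 point per library (4 DMSO libraries as grey circles, 4 TBBPA libraries as red squares) and a bar at each group mean. Mdm2, sesn1, sesn3, tp53inp1 and gadd45ga lay higher in all 4 TBBPA libraries while btg2 and ccng1 overlapped, and among immediate-early genes fosab, jun and klf6a lay higher but cebpb, ier2a, klf2b and mych lower.

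Immediate-early genes, which respond to growth factors and stress within minutes in many cells, did not move as a group. Of 21 tested 3 rose and 7 fell, or 47.6% called beside 12.0% of all tested genes. The rises were the AP-1 subunits fosab and jun (0.765 ± 0.24 to 7.80 ± 0.76 and 2.41 ± 0.45 to 9.96 ± 0.35 FPKM) and klf6a (14.8 ± 0.72 to 17.6 ± 0.86). Other AP-1 subunits did not pass, with atf3 at 7.19 and 7.20 and jund at 3.63 and 3.30. Cebpb, a transcription factor gene of the C/EBP family, had the largest fall of the list. It lay at 15.4, 17.9, 17.3 and 18.4 in DMSO and at 3.70, 4.87, 6.65 and 5.56 in TBBPA (log2 difference −1.58, SE 0.13, limma adjusted p = 5.97e-05). The groups did not overlap. Ier2a (19.5 ± 1.5 to 9.31 ± 0.96), klf2b (11.8 ± 1.4 to 6.31 ± 1.1), klf2a, mych (97.7 ± 6.1 to 60.9 ± 8.8), mycn (10.1 ± 0.58 to 6.27 ± 1.4) and dusp1 also fell. In DMSO embryos at 2 hpf fosab, jun, ier2a, klf2a and klf2b were all at or under 0.155 FPKM.

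Other stress pathways had smaller shares of calls, from 13.3% of the integrated stress response to 26.7% of innate immune genes, beside the background of 12.0%. In the integrated stress response, where Atf4 induces amino acid and stress genes, 0 of 15 rose and 2 fell: trib3 (60.1 ± 3.6 to 51.8 ± 1.3) and atf4a (18.2 ± 1.4 to 14.3 ± 1.7). The call of atf4a was lost in 5 alternative settings, among them those without DMSO replicate 1, 2 or 3. Among 29 chaperone genes of the cytosol and endoplasmic reticulum 4 rose and 2 fell. The small heat shock protein gene hspb1 fell from 46.1 ± 4.25 to 24.01 ± 4.0. Pdia4 rose from 79.6 ± 4.5 to 103 ± 5.6, calr3a from 142 ± 5.5 to 175 ± 7.7 and dnajb1a from 8.53 ± 0.77 to 12.4 ± 0.59. The master endoplasmic reticulum chaperone gene hspa5 did not pass (552 ± 14 and 561 ± 17.5), and xbp1, a transcription factor gene of the unfolded protein response, fell from 69.0 ± 2.9 to 60.8 ± 1.7. Of 24 antioxidant and metal response genes 3 rose and 1 fell, and gclc, which encodes the rate-limiting enzyme of glutathione synthesis, lay at 114 ± 2.4 and 113 ± 3.8. Innate immune genes gave 2 rises and 2 falls of 15: isg15 rose, stat1a, a transducer of interferon signals, rose from 1.14 ± 0.081 to 2.31 ± 0.30, and irf7 and nfkbiaa fell (6.91 ± 0.63 to 4.57 ± 0.74 and 2.01 ± 0.27 to 0.786 ± 0.19). Of 24 circadian genes 4 rose, and of 20 xenobiotic, thyroid and other nuclear receptor genes 2 rose and 1 fell.

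The enveloping layer is the outer epithelium of the embryo and its first tissue to differentiate. Of 19 tested genes of the enveloping layer and epidermis 10 fell and none rose (median log2 difference −0.31), or 9 of 18 without spaca4l, while 37 further members, many keratin genes among them, were below the level filter. Spaca4l, an early gene of this layer in zebrafish, lay at 1.73, 1.77, 1.74 and 2.45 FPKM in DMSO and at 0.0616, 0.195, 0.121 and 0.125 in TBBPA. It reached the level filter in DMSO alone, so it had to differ. The log2 difference, which understates so low a gene, was −1.37 (SE 0.10, limma adjusted p = 3.87e-05). The claudin gene cldne fell from 11.7 ± 1.7 to 1.48 ± 0.53. The epithelial transcription factor genes ovol1a (6.67 ± 0.66 to 3.71 ± 0.44) and gata2a (8.89 ± 0.44 to 5.76 ± 1.1) fell, beside grhl3, tfap2a, gata3 and klf17. The maternal claudin gene cldnd did not pass, nor did foxi1 (13.9 ± 1.9 and 16.9 ± 1.7, adjusted p = 0.113). Of 32 genes of adherens and tight junctions 1 rose and 1 fell, a share below the background, with the catenin gene ctnna1 at 204 ± 6.3 and 199 ± 4.7.

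Actin and cell movement genes gave 3 rises and 5 falls of 37, or 21.6% called beside 12.0% of all tested genes. Net1, an exchange factor for the GTPase RhoA, lay at 14.1, 14.5, 12.3 and 15.9 FPKM in DMSO and at 3.33, 4.33, 4.25 and 4.27 in TBBPA, where replicate 1 was apart from the other 3. Rhoab, a RhoA gene, fell from 4.18 ± 0.29 to 2.56 ± 0.46. The main actin genes differed little: actb1 fell from 39.9 ± 1.5 to 34.5 ± 1.3, and cfl1 (374 ± 4.8 and 368 ± 7.5) and pfn2 did not pass.

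Guidance genes of migrating cells in the gastrula include receptors, ligands, a matrix enzyme and repressors of adhesion genes. On the list of chemokine, apelin and adhesion guidance genes 10 of 16 tested fell, 1 rose and 5 did not pass (median log2 difference −0.41). Without cxcl12a, which was tested through DMSO alone, 9 of 15 fell. Of all tested genes 5.34% fell. Cxcr4b, a receptor for the chemokine Cxcl12, lay at 58.7, 56.6, 49.9 and 60.5 FPKM in DMSO and at 28.7, 32.7, 37.3 and 32.4 in TBBPA (log2 difference −0.77, SE 0.08, limma adjusted p = 0.000209). No TBBPA library overlapped the DMSO range. Ackr3b, a scavenger receptor for the same chemokine, fell from 12.02 ± 0.70 to 3.32 ± 0.61. Their ligand gene cxcl12a fell from 1.47 ± 0.21 to 0.637 ± 0.23, and has2, which encodes a hyaluronan synthase, from 7.33 ± 0.93 to 3.46 ± 1.4. The repressors of cadherin genes snai2 and snai1a fell from 28.3 ± 0.52 to 17.2 ± 2.7 and from 125 ± 1.8 to 109 ± 5.2.

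The apelin receptors, which bind Apelin and Toddler and are needed for mesendoderm movement in zebrafish, went opposite ways. Aplnra lay at 5.09, 7.96, 8.95 and 8.99 FPKM in DMSO and at 2.39, 3.49, 4.40 and 3.72 in TBBPA, a log2 difference of −0.95 (SE 0.18, limma adjusted p = 0.00671). Aplnrb lay at 42.8, 37.4, 39.6 and 38.2 in DMSO and at 157, 152, 204 and 187 in TBBPA, a difference of 2.11 (SE 0.09, adjusted p = 1.81e-06). In neither gene did the groups overlap. Neither was detected in DMSO embryos at 2 hpf, where both were listed at 0. Their ligand genes apln (0.173 and 0.0786) and apela were below the level filter. Apela was listed at 0 in both groups, and whether its reads could be assigned was not tested.

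In the BMP pathway, which patterns ventral cell fates, the genes that fell included ligands, an antagonist and targets, while the most abundant receptor and transducer genes did not pass. Of 31 tested genes of the BMP and ventral list 10 fell and 2 rose (median log2 difference −0.02). The falls were 32.3%, beside 5.34% of all tested genes. Without chrd and smad7, tested through DMSO alone, 8 of 29 fell. Among 9 ligands and extracellular regulators 3 fell: the antagonist gene chrd, the dorsal BMP gene admp (13.1 ± 0.49 to 7.52 ± 1.6 FPKM) and the ligand gene bmp2b (1.77 ± 0.30 to 1.01 ± 0.17). The call of bmp2b was lost in 5 alternative settings, among them those without DMSO replicate 2 or TBBPA replicate 1 or 2. Among 14 receptors, Smads and feedback genes the 3 falls were in direct targets of the pathway. Id1, which encodes an inhibitor of helix-loop-helix factors, lay at 44.0, 41.0, 41.2 and 40.4 in DMSO and at 14.99, 17.3, 25.9 and 20.1 in TBBPA (log2 difference −1.08, SE 0.13, limma adjusted p = 0.000527). DMSO and TBBPA libraries did not overlap. Smad7, an inhibitory Smad gene, fell from 1.34 ± 0.12 to 0.400 ± 0.22, and bambia, a pseudoreceptor gene, from 20.6 ± 1.3 to 15.7 ± 0.52. The transducer gene smad5 (299 ± 3.7 and 296 ± 3.7) and the receptor gene acvr1l (95.6 ± 2.1 and 93.5 ± 2.6) did not pass, and id2a and id3 did not either.

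The ventral homeobox repressors vox, vent and ved, which act redundantly against dorsal genes, did not share a direction. Ved lay at 7.87, 5.61, 6.71 and 6.62 FPKM in DMSO and at 1.55, 2.31, 2.45 and 2.71 in TBBPA, a log2 difference of −1.25 (SE 0.13, limma adjusted p = 0.000209). Vent lay at 1.72, 1.49, 1.91 and 2.34 in DMSO and at 2.57, 2.53, 3.59 and 3.63 in TBBPA, a difference of 0.51 (SE 0.13, limma adjusted p = 0.0288). This call was lost in 6 alternative settings, among them those without DMSO replicate 1, 2 or 3 or TBBPA replicate 3 or 4. Vox did not pass. On the dorsal organizer list 5 of 18 tested genes fell and none rose. The falls were 27.8%, beside 5.34% of all tested genes, and 3 of 16 fell without chrd and sp5l. Besides chrd and foxd3 the 5 falls were noto, the notochord homeobox gene (10.98 ± 0.74 to 6.32 ± 0.72), the Wnt target sp5l (1.43 ± 0.24 to 0.410 ± 0.12) and the Wnt receptor gene fzd8a (23.2 ± 0.79 to 18.2 ± 1.2).

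In the Nodal pathway and its mesodermal targets 7 of 23 tested genes fell and 1 rose (median log2 difference −0.14). The falls were 30.4%, beside 5.34% of all tested genes. Dact1, a Dapper gene that modulates Wnt and other signals, had the largest fall, from 8.50, 9.30, 7.71 and 9.20 FPKM in the DMSO libraries to 2.90, 4.31, 5.21 and 4.73 in the TBBPA libraries (log2 difference −0.89, SE 0.13, limma adjusted p = 0.0017). No library of 1 group reached the range of the other. Tdgf1, the Nodal coreceptor gene known as one-eyed pinhead, fell from 99.9 ± 6.9 to 84.1 ± 4.4, and foxh1, a partner of activated Smad2, from 53.8 ± 1.02 to 47.8 ± 2.4. Smad2 itself rose from 72.7 ± 2.3 to 89.4 ± 3.3. The Nodal gene ndr1 (1.27 and 1.19), the maternal ligand gene gdf3 (266 ± 11 and 267 ± 7.0) and the T-box gene eomesa (224 ± 3.8 and 235 ± 5.9) did not pass. Tbx16 lay at 9.70 ± 0.98 and 6.20 ± 2.3, a difference that missed the threshold (adjusted p = 0.0747). Of 11 endoderm and yolk syncytial layer genes 4 fell and none rose, among them apoeb, an apolipoprotein gene (57.5 ± 4.3 to 38.8 ± 6.5), and the yolk syncytial regulator mxtx2 did not pass (4.199 ± 0.34 and 4.72 ± 1.3).

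For fibroblast growth factors 6 of 14 tested genes fell and 1 rose, while 22 members were below the level filter. The falls were 42.9%, beside 5.34% of all tested genes. The ligand gene fgf17 lay at 2.86, 3.90, 2.69 and 2.93 FPKM in DMSO and at 0.620, 1.11, 1.496 and 0.861 in TBBPA (log2 difference −1.03, SE 0.14, limma adjusted p = 0.00117). Its groups did not overlap. The receptor gene fgfr4 fell from 12.8 ± 1.3 to 6.66 ± 1.8. Feedback inhibitors of the pathway fell as well: spry4 from 2.27 ± 0.26 to 0.743 ± 0.26 and dusp6, a phosphatase gene for ERK, from 3.95 ± 0.79 to 2.03 ± 0.35. Il17rd and the target gene etv5b did not pass. On the Wnt list, with 36 tested genes, 4 rose and 4 fell, or 22.2% called beside 12.0% of all tested genes. The negative feedback gene znrf3 rose from 6.42 ± 0.56 to 9.79 ± 0.87 and the receptor gene fzd5 from 22.3 ± 1.03 to 26.4 ± 1.1 (a call lost in the fit over 16 libraries, limma adjusted p = 0.0597), while fzd4 fell from 2.09 ± 0.29 to 0.983 ± 0.14. The beta-catenin genes ctnnb1 (312 ± 3.8 and 306 ± 7.4) and ctnnb2 (468 ± 7.3 and 475 ± 12) did not pass. Of 17 genes of retinoic acid, Hedgehog and Notch signalling 2 fell, with rdh10b, a retinol dehydrogenase gene, at 21.6 ± 1.6 and 15.8 ± 1.3.

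Among 20 SoxB1, SoxC and early neural transcription factor genes 8 fell and 2 rose (median log2 difference −0.33). The falls were 40%, beside 5.34% of all tested genes. Sox3, a SoxB1 gene, lay at 105, 103, 101 and 99.6 FPKM in DMSO and at 39.7, 50.3, 53.1 and 50.2 in TBBPA (log2 difference −1.07, SE 0.08, limma adjusted p = 2.78e-05). Its groups did not overlap. Sox19a, of the same family, fell from 18.8 ± 2.4 to 7.94 ± 1.1. The zygotic SoxC gene sox11a fell from 21.2 ± 1.8 to 10.1 ± 2.5, while its maternally supplied paralog sox11b did not pass (88.0 ± 4.0 and 89.6 ± 1.8). Irx7, an Iroquois homeobox gene, rose from 102 ± 5.03 to 128 ± 4.5, and otx1 rose from 102 ± 3.6 to 120 ± 5.2. Irx7 was at 0.161 FPKM in DMSO embryos at 2 hpf, where otx1 was already at 93.0.

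Hairy-related repressors, which mediate Notch and other signals, gave 5 falls and 1 rise of 14. The falls were 35.7%, beside 5.34% of all tested genes. The 11 that were not tested through 1 group alone gave 3 falls and no rise. Her5 lay at 128, 132, 122 and 132 FPKM in DMSO and at 76.5, 90.3, 102 and 87.7 in TBBPA (log2 difference −0.53, SE 0.07, limma adjusted p = 0.001), and her11 fell from 39.3 ± 3.7 to 23.1 ± 3.1. Her12 lay at 0.498, 0.911, 0.523 and 0.0644 in DMSO and at 2.16, 2.12, 2.39 and 2.09 in TBBPA, a difference of 1.12 (SE 0.15, adjusted p = 0.00118). The groups of her5 did not overlap. Her12 reached the level filter in TBBPA alone, so its direction was fixed by the filter.

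**Figure D2:**
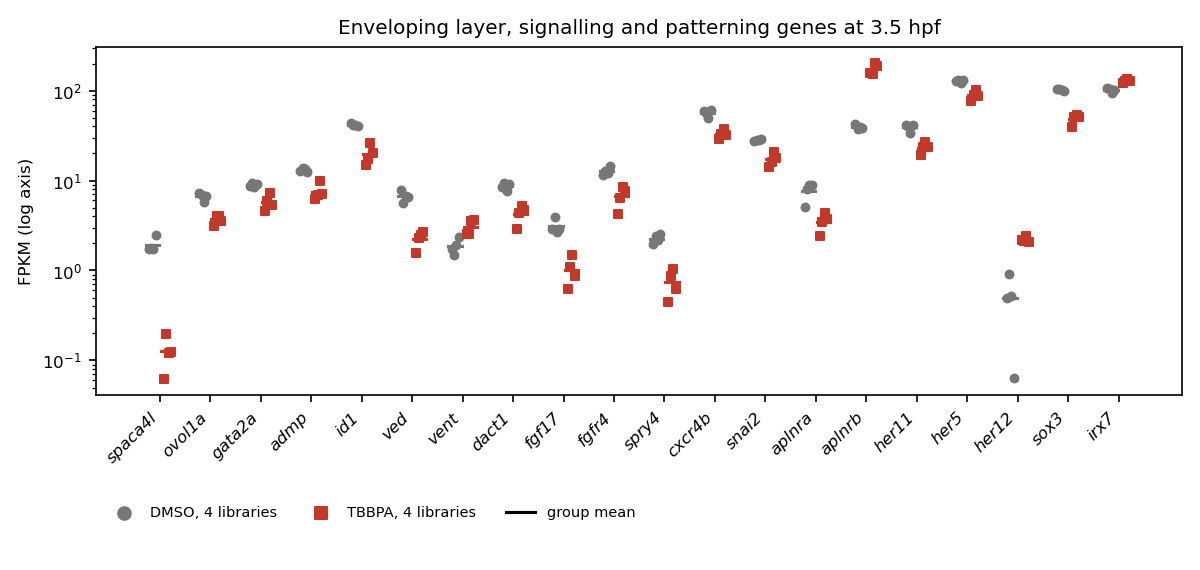
FPKM on a log axis of 20 genes of the enveloping layer, signalling and neural lists at 3.5 hpf, with 1 point per library (4 DMSO libraries as grey circles, 4 TBBPA libraries as red squares) and a bar at each group mean. Most lay lower in the 4 TBBPA libraries, spaca4l (tested through DMSO alone) by the widest margin, whereas aplnrb, vent, her12 and irx7 lay higher than in DMSO beside their lower relatives aplnra, ved and her5.

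The direction of a gene's difference followed the course of its level in unexposed embryos. Tested genes were binned by the log2 ratio of their mean at 4.5 hpf over that at 2 hpf in DMSO libraries, none of which enter the comparison at 3.5 hpf, though the 2 hpf table was scaled separately. Of 92 genes whose level fell to an eighth or less (log2 ratio of −3 or under) 60 rose and 0 fell, with a median log2 difference of 0.42. Of 358 genes with a ratio of −3 to −2, 145 rose and 5 fell. In the middle bin, −0.5 to 0.5, 140 of 4344 rose and 95 fell, a total of 5.41% that lies below the background of 12.0%. Of 490 genes with a ratio of 2 to 3, 53 fell and 3 rose, and of 626 genes above 3, 318 fell and 21 rose, with a median of −0.49. The bins include genes tested through 1 group alone, whose direction was fixed by the level filter, and were not counted without them.

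**Figure D3:**
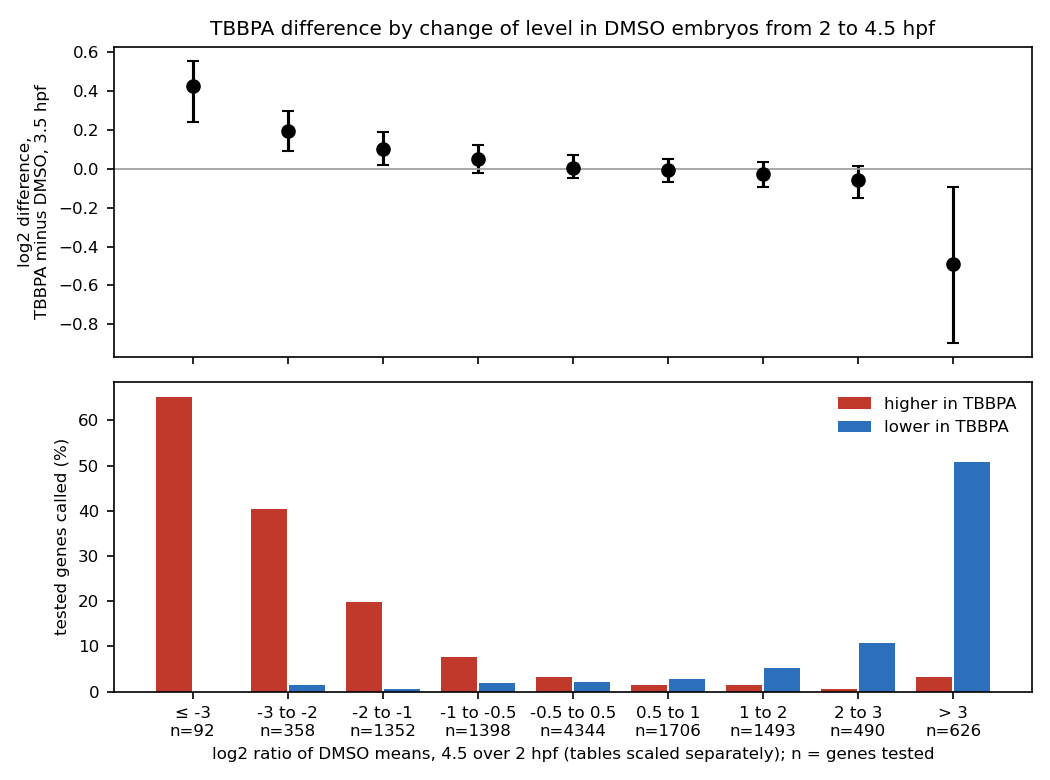
Tested genes binned by the log2 ratio of DMSO means at 4.5 over 2 hpf (x axis, with the number of genes). The upper panel gives the median log2 difference of TBBPA minus DMSO at 3.5 hpf with the quartiles as bars, and the lower panel the percentage of genes called higher (red) and lower (blue); the median runs from 0.42 in the genes cleared most to −0.49 in those induced most.

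With a limit of 4-fold on the same ratio, 1116 tested genes formed a late-onset class and 450 a cleared class. Of late-onset genes 371 fell and 24 rose, and of cleared genes 205 rose and 5 fell. The name late-onset stands for this ratio only, since 563 of these genes were already at 0.5 FPKM or more in DMSO at 2 hpf. Of those 563 genes 137 fell (24.3%), and of the 553 below that level 234 fell (42.3%). No test of this difference was made. Without genes tested through 1 group alone, whose direction was fixed by the level filter, 333 late-onset genes fell and 205 cleared genes rose. Late-onset genes took 3.46%, 3.44%, 3.39% and 3.50% of assigned reads in the DMSO libraries and 2.75%, 2.84%, 3.07% and 2.90% in the TBBPA libraries. Cleared genes took 3.25%, 3.22%, 3.16% and 3.15% in DMSO and 4.03%, 3.89%, 3.61% and 3.74% in TBBPA. In both measures the groups did not overlap (exact permutation p = 0.0286, 2-sided, the smallest that 4 against 4 libraries allow, adjusted p = 0.040 over 7 measures). For scale, late-onset genes took 0.617% ± 0.033 of reads at 2 hpf and 7.17% at 4.5 hpf in DMSO, and cleared genes 7.59% ± 0.089 and 1.14%. The number of late-onset genes at 1 FPKM or more was 1172 ± 6.2 in DMSO and ranged from 988 to 1047 in TBBPA, also without overlap (adjusted p = 0.040, exact permutation). In DMSO at 2 hpf this number was already 433.5 ± 14.

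The 4 TBBPA libraries differed among themselves along this same axis. Replicate 1 was the lowest of the 4 in 226 of the 371 late-onset genes that fell and the highest in 132 of the 205 cleared genes that rose. Replicate 3 was the highest in 229 of those 371 and the lowest in 137 of those 205. The 24 late-onset genes that rose also had their highest TBBPA level in replicate 3 in 17 cases. Replicate 3 was thus nearer to DMSO for the falls and for the cleared genes, but farther from DMSO for most late-onset rises.

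The 24 late-onset genes that rose, listed after their values were seen, held 7 members of the growth arrest, repair and apoptosis list and the AP-1 genes fosab and jun. By size of difference they were led by si:ch211-239d6.2 (log2 difference 3.50), then gadd45aa, phlda3, cdkn1a, isg15, fosab, bbc3, aplnrb, rasl11b, sesn3 (1.71), jun, plekhn1, tp53inp1, ctsh (1.11), e2f7, igf2a (0.89), txnipa (0.83), gadd45ga, zgc:64022, vent, rgs12b, irx7, ubb and gtf3ab (0.16). Si:ch211-239d6.2 (ENSDARG00000103700, chromosome 19, 25154066 to 25155258 in the tables) had the largest log2 difference of all tested genes. The tables place it in the forkhead family and give no further name. It lay at 10.6, 4.71, 5.02 and 5.97 FPKM in DMSO and at 71.7, 72.5, 97.7 and 85.2 in TBBPA (SE 0.20, limma adjusted p = 7.92e-06), without overlap, and its DMSO mean at 2 hpf was 0.23 FPKM. The 5 cleared genes that fell, named after their values were seen, were znf609a, adcy9, pcm1, org and a mitochondrial tRNA gene. Znf609a and adcy9 had overlapping groups, with TBBPA replicate 4 nearest to DMSO.

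Several rises and falls outside the lists were also large. Igf2a, an insulin-like growth factor gene, lay at 5.38, 5.77, 4.16 and 5.41 FPKM in DMSO and at 7.95, 9.30, 13.3 and 11.7 in TBBPA. Txnipa, a thioredoxin-interacting protein gene, rose from 2.89 ± 0.30 to 5.94 ± 0.90, although in DMSO embryos its level is higher later (31.8 at 4.5 hpf) and TBBPA embryos then had 14.9. Falls included sult6b1, a sulfotransferase gene (17.4 ± 1.2 to 3.71 ± 1.6), ftr82, a fish-specific finTRIM gene (13.5 ± 1.3 to 3.22 ± 0.80), depdc7 (14.8 ± 1.1 to 4.61 ± 0.98), lrwd1, which encodes a partner of the origin recognition complex (28.02 ± 2.0 to 10.6 ± 1.8), the mitochondrial carrier gene slc25a55a (24.3 ± 1.4 to 9.56 ± 1.6) and asb11. Asb11, which encodes a substrate receptor of a ubiquitin ligase, lay at 41.1, 37.9, 36.5 and 40.5 in DMSO and at 5.98, 14.9, 19.96 and 17.0 in TBBPA, where replicate 1 was the lowest. Each of these genes kept its call in every one of the 18 alternative settings that tested it, the omission of each library included. Txnipa was too low to be tested with a filter at 5 FPKM.

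Many replication-type histone genes fell. The tables place 72 tested genes in the histone family, of which 35 fell, 1 rose and 36 did not pass (median log2 difference −0.57). The falls were 48.6% of the family, beside 5.34% of all tested genes, and 34 of the 35 were among its 58 late-onset genes. Any member tested through DMSO alone had its direction fixed by the level filter, and the family was not counted without such members. On the list of histone genes 12 of 31 fell, and 12 of 30 without the gene tested through 1 group alone. Many of these genes are near-identical copies between which reads may have been divided, so single values are uncertain. Hist2h3c (ENSDARG00000094154), an H3 gene, lay at 39.1, 37.8, 34.8 and 40.9 FPKM in DMSO and at 10.5, 11.2, 11.8 and 11.7 in TBBPA (log2 difference −1.67, SE 0.06, limma adjusted p = 4.65e-07). The linker histone gene histh1l fell from 6.68 ± 0.61 to 1.69 ± 0.41. H2afx, the gene of the variant that is phosphorylated at DNA breaks, lay at 60.0, 57.1, 52.3 and 58.8 in DMSO and at 15.7, 22.3, 23.7 and 18.8 in TBBPA. For these 3 genes the groups did not overlap. Maternally supplied histone genes went the other way or differed little: h1m, the maternal linker histone, rose from 731 ± 20 to 801 ± 18, h2af1al, a maternal H2A variant, had a log2 difference of 0.29 (SE 0.05, adjusted p = 0.00404), and h2afva did not pass (425 ± 6.6 and 408 ± 8.0). Npat, the coactivator of replication histone genes, rose from 40.8 ± 0.77 to 49.2 ± 2.0.

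Zinc finger genes on the long arm of chromosome 4 were a second large group of falls. The tables assign 296 tested genes to the C2H2 zinc finger family, and 71 fell and 10 rose. Of 101 on chromosome 4, all but 1 beyond 25 Mb, 43 fell and 3 rose (median log2 difference −0.34), and of 195 elsewhere 28 fell and 7 rose (median 0.04). All 43 falls on chromosome 4 were late-onset genes. Among late-onset genes 57.3% of the C2H2 genes on chromosome 4 fell (43 of 75), 37.7% of those elsewhere (26 of 69) and 31.1% of genes of other families (302 of 972). These genes lie in repeated clusters, so reads may be shared between copies, and no test of this difference was made. Among the 43 falls, si:dkey-176f19.1, si:dkey-56m15.3, znf999, znf1096, si:ch211-223a21.3 and si:dkey-3p4.8 were tested through DMSO alone, so their direction was fixed by the level filter. The shares above include them. Znf997 (chromosome 4, 38937575 to 38943762 in the tables) lay at 6.11, 6.39, 5.98 and 4.98 FPKM in DMSO and at 1.98, 1.63, 1.95 and 2.37 in TBBPA (log2 difference −1.20, SE 0.10, limma adjusted p = 5.63e-05). Si:dkey-146c18.5 (chromosome 4, 61865790 to 61943292) was more abundant, at 95.4, 93.0, 84.6 and 96.8 in DMSO and at 32.0, 40.3, 46.3 and 35.7 in TBBPA. Neither gene's groups overlapped. From 25 to 50 Mb of chromosome 4, 37 of 85 tested genes fell and 0 rose, beyond 50 Mb 26 of 122 fell and 5 rose, and in the first 25 Mb 13 of 278 fell and 20 rose. The SET domain family, which holds histone methyltransferases, had 8 falls and 1 rise of 34. Of its genes that fell, si:dkey-238o14.7 and BX649556.2 lie on the same arm.

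The share of late-onset genes that fell differed with gene size, in a direction that depended on the measure of size. No test of this difference was made. By the span from start to end in the tables, 157 of the 373 shortest late-onset genes fell and 91 of the 372 longest, or 42.1% and 24.5%. By the summed length that enters FPKM the order was the reverse, with 29.8% of the 372 shortest and 37.1% of the 372 longest called lower.

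Maternal transcripts deposited in the oocyte rose in 9 and fell in 2 of 36 tested genes (median log2 difference 0.02). The rises were 25%, beside 6.67% of all tested genes, but only 5 of the 9 rises and 1 of the 2 falls were kept in all alternative settings. Buc2l, a paralog of the Balbiani body gene bucky ball, lay at 41.7, 40.0, 45.4 and 40.0 FPKM in DMSO and at 81.1, 71.0, 67.8 and 67.9 in TBBPA, without overlap (log2 difference 0.77, SE 0.06, limma adjusted p = 5.37e-05). Buc itself rose from 184 ± 4.7 to 241 ± 22. Mtus1a, a microtubule-associated gene, rose from 7.19 ± 0.58 to 10.3 ± 0.32. The largest rises among cleared genes with a symbol included sh2d5 (log2 difference 0.77, SE 0.09), the small GTPase gene arl8ba (9.96 ± 0.55 to 17.4 ± 1.9) and the slingshot phosphatase gene ssh2a (10.2 ± 0.40 to 17.6 ± 1.8). In DMSO embryos these 3 genes were at 144, 24.4 and 78.3 FPKM at 2 hpf, above their levels in either group at 3.5 hpf. Org, a transcript named for oogenesis, was an exception that fell from 97.0 ± 3.8 to 81.6 ± 1.8, as did pabpc1l (20.03 ± 2.05 to 16.6 ± 0.74). The call of pabpc1l was lost in 9 alternative settings, among them those without DMSO replicate 1 or 3 or TBBPA replicate 1, 2 or 3.

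Germ plasm genes gave 3 rises and 2 falls of 20, or 25% called beside 12.0% of all tested genes. Tdrd6, a Tudor domain organizer of germ plasm, rose from 16.5 ± 0.72 to 22.2 ± 1.3 and dnd1, a germ cell RNA-binding protein gene, from 33.2 ± 0.81 to 38.3 ± 2.2, and the germ line helicase gene ddx4 did not pass (117 ± 2.9 and 117 ± 1.5). Of 69 genes of mRNA decay 5 rose and 4 fell, near the background. Lsm1, a subunit of the ring that promotes decapping, stood out among them at 25.8, 27.6, 26.4 and 26.4 FPKM in DMSO and 42.8, 39.8, 39.6 and 39.2 in TBBPA (log2 difference 0.59, SE 0.04, limma adjusted p = 1.63e-05). The groups did not overlap. Ago3a, an Argonaute gene, rose from 50.9 ± 3.03 to 61.3 ± 2.7.

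Most transcripts of the mitochondrial genome were lower in exposed embryos. Of 13 protein-coding mitochondrial genes 12 fell, or 92.3% beside 5.34% of all tested genes. Mt-nd3, which encodes a subunit of complex I, lay at 550, 483, 474 and 448 FPKM in DMSO and at 349, 339, 363 and 329 in TBBPA (log2 difference −0.50, SE 0.06, limma adjusted p = 0.000346), without overlap. Mt-nd5 fell from 422 ± 7.5 to 348 ± 12, and mt-atp6 was the gene that did not pass. Both mitochondrial ribosomal RNA genes and 9 of 18 tested mitochondrial transfer RNA genes fell, so that 23 of 33 tested genes of that genome fell and 0 rose. Reads of the protein-coding mitochondrial genes were 2.28%, 2.04%, 2.10% and 1.98% of the DMSO libraries and 1.87%, 1.76%, 1.87% and 1.67% of the TBBPA libraries (exact permutation p = 0.0286, adjusted p = 0.040). Of 82 nuclear genes of oxidative phosphorylation 2 rose and 3 fell, and of 64 mitochondrial ribosomal protein genes 2 rose.

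Histone acetylation genes, the subject named in the title of the series, gave 3 rises and 8 falls among 99 tested genes, 11 calls in all, close to the background of 12.0%. Atad2, a bromodomain reader of acetylated histones, rose from 21.8, 22.1, 20.5 and 21.6 FPKM to 34.7, 31.3, 30.1 and 29.6 (log2 difference 0.53, SE 0.05, limma adjusted p = 0.000165). Epc2, a subunit of the NuA4 acetyltransferase complex, rose from 71.9 ± 1.9 to 80.6 ± 2.3. Brd2a, a bromodomain gene, lay at 60.9, 62.5, 62.7 and 61.2 in DMSO and at 37.9, 42.6, 45.4 and 41.6 in TBBPA, without overlap. Kat14, a subunit of the ATAC acetyltransferase complex, fell from 3.38 ± 0.35 to 2.26 ± 0.11, msl2a from 7.19 ± 0.46 to 5.51 ± 0.46, and the histone chaperone gene rbbp4 from 31.0 ± 1.7 to 25.9 ± 1.4. The bromodomain gene brd3a (207 ± 2.2 and 201 ± 6.2) and the acetyltransferase genes kat2a, kat7b (135 and 142) and hat1, did not pass. Of 83 other chromatin regulators 2 rose and 5 fell, or 8.43% called. Dnmt1, the maintenance DNA methyltransferase gene, rose from 177 ± 2.9 to 223 ± 8.1. Of 97 genes of the RNA polymerase II machinery 7 rose and 2 fell, or 9.28% called. Both shares were below the background of 12.0%. Tbpl2, the oocyte form of the TATA-binding protein, rose from 10.9 ± 0.23 to 14.6 ± 1.9, tbpl1 from 16.6 ± 0.95 to 20.4 ± 1.2 and the Mediator gene med13b from 28.4 ± 1.2 to 35.5 ± 1.5. Of 74 splicing factor genes 5 fell and none rose, with the largest fall in srsf5a (41.8 ± 1.6 to 26.7 ± 3.0). The falls were 6.76%, near the 5.34% of all tested genes.

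The largest falls on the chromatin lists were in very long genes and did not separate the groups. Trrap, a scaffold of acetyltransferase complexes with a length of 12.7 kb in the tables, lay at 7.66, 15.08, 17.9 and 18.1 FPKM in DMSO and at 1.88, 2.31, 2.90 and 8.64 in TBBPA (log2 difference −1.78, SE 0.37, limma adjusted p = 0.0118). Nipblb, a cohesin loader gene of 9.76 kb, lay at 6.59, 10.2, 11.8 and 12.5 in DMSO and at 2.14, 2.26, 2.87 and 7.90 in TBBPA. In both genes TBBPA replicate 4 lay above DMSO replicate 1. The call of trrap held without any single library (adjusted p from 0.000976 to 0.0416, limma). That of nipblb was lost in 7 alternative settings, among them those without DMSO replicate 2, 3 or 4 or TBBPA replicate 1, 2 or 3. Herc2 (14.6 kb), nbeal1 (8.42 kb), usp9 (9.66 kb) and the splicing factor gene prpf8 also had TBBPA replicate 4 as the highest of its group and DMSO replicate 1 as the lowest of its own, and in usp9 the groups still did not overlap. The calls of herc2 and nbeal1 were lost without any of DMSO replicates 2 to 4 or TBBPA replicates 1 to 3. That of prpf8 was lost in 5 alternative settings, among them those without DMSO replicate 2 or 4 or TBBPA replicate 1 or 2.

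This order held over long genes as a set. For 54 tested genes over 12 kb, the median deviation of log2(FPKM+1) from the mean of the 8 libraries was −0.05, 0.05, 0.08 and 0.09 in DMSO replicates 1 to 4 and −0.10, −0.09, −0.04 and 0.05 in TBBPA replicates 1 to 4. For 4395 genes of 2 to 4 kb all 8 medians lay between −0.01 and 0.02. Of 396 genes over 8 kb 41 fell and 16 rose, and the number of falls rested on single libraries: it was 91 without TBBPA replicate 4, 60 without DMSO replicate 1, 12 without TBBPA replicate 3, 9 without DMSO replicate 3, 7 without TBBPA replicate 1, and 6 without TBBPA replicate 2 or DMSO replicate 2 or 4. The part of transcript integrity or library preparation in these values was not tested. Among 1283 genes of 1 kb or less 125 fell and 41 rose.

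**Figure D4:**
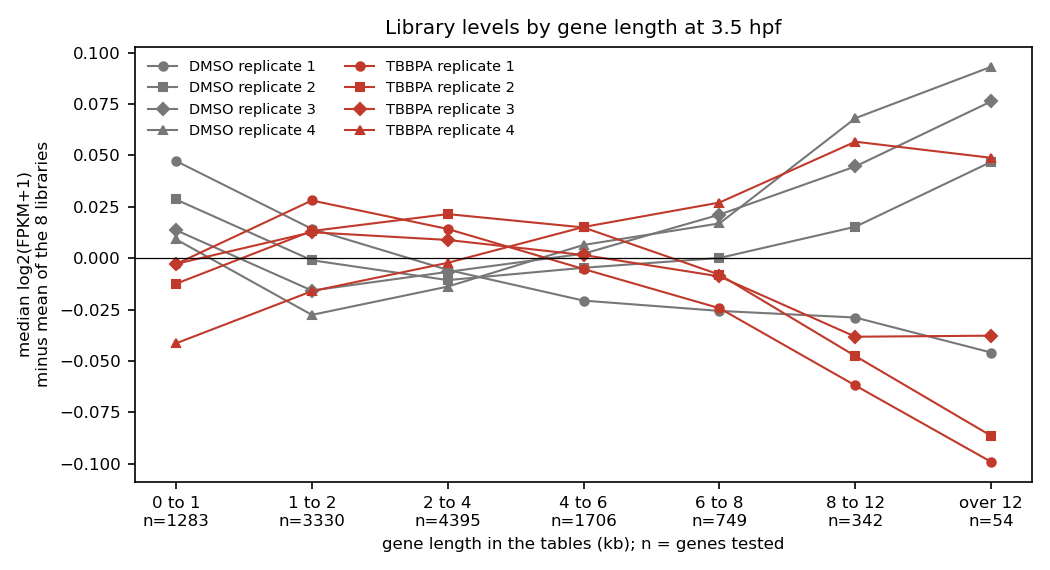
Median over tested genes of log2(FPKM+1) minus the mean of the 8 libraries at 3.5 hpf (y axis), by gene length in the tables (x axis, with the number of genes), with 1 line per library, grey for DMSO and red for TBBPA. Above 8 kb the lines fan out and the groups mix: TBBPA replicate 4 lies with DMSO replicates 2 to 4, and DMSO replicate 1 with the other 3 TBBPA libraries.

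In housekeeping machinery other than glycolysis the shares of genes called in either direction were near or below the background of 12.0%. Ribosomal protein genes fell in 8 of 76 and rose in none, and 66 of the 76 had a log2 difference below 0 (median −0.08). Their falls were 10.5%, beside 5.34% of all tested genes, and 4 of the 8 were kept in all alternative settings. Rpsa lay at 52.3, 50.1, 48.7 and 49.0 FPKM in DMSO and at 39.8, 38.2, 39.9 and 41.1 in TBBPA, and rps2 fell from 193 ± 8.3 to 156 ± 3.5. As a share of reads, ribosomal protein genes took 0.712% ± 0.023 and 0.673%, a difference that did not pass (exact permutation p = 0.0571, adjusted p = 0.0667). Calls were below or near the background in ribosome biogenesis (5 of 78), translation factors (7 of 68), tRNA synthetases (1 of 29), the proteasome (4 of 46), DNA replication (6 of 58) and cholesterol synthesis (1 of 23). Glycolysis gave 4 rises and 4 falls of 23, or 34.8% beside the background of 12.0%, but only 3 rises and 1 fall were kept in all alternative settings. Pfkfb4a, a regulator of glycolytic flux, rose from 11.6 ± 0.66 to 17.0 ± 1.04, and eno3, an enolase gene, fell from 10.8 ± 0.40 to 8.51 ± 0.45.

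Cell cycle and checkpoint genes gave 8 rises and 9 falls of 57 (9 and 8 with TPM scaling). The calls were 29.8%, beside 12.0% of all tested genes. Ccnd1, the G1 cyclin gene, lay at 14.1, 15.03, 14.2 and 17.8 FPKM in DMSO and at 3.95, 5.93, 9.20 and 7.03 in TBBPA (log2 difference −1.15, SE 0.18, limma adjusted p = 0.00261), without overlap. Cdkn1ca, an inhibitor of cyclin-dependent kinases, fell from 7.19 ± 0.47 to 3.97 ± 1.3, opposite to its relative cdkn1a. Ccnf fell from 4.17 ± 0.42 to 2.24 ± 0.33, fbxo5, an inhibitor of the anaphase-promoting complex, from 21.4 ± 1.2 to 15.97 ± 1.5, and the mitotic kinase gene aurkb from 33.2 ± 2.8 to 26.4 ± 1.8. Brca2, a gene of recombination repair, rose from 11.7 ± 0.32 to 13.7 ± 0.46. The abundant maternal cyclin gene ccna2 (465 ± 5.8 and 457 ± 7.0) and the activator gene cdc20 (360.4 ± 7.05 and 372 ± 9.7) did not pass.

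**Figure D5:**
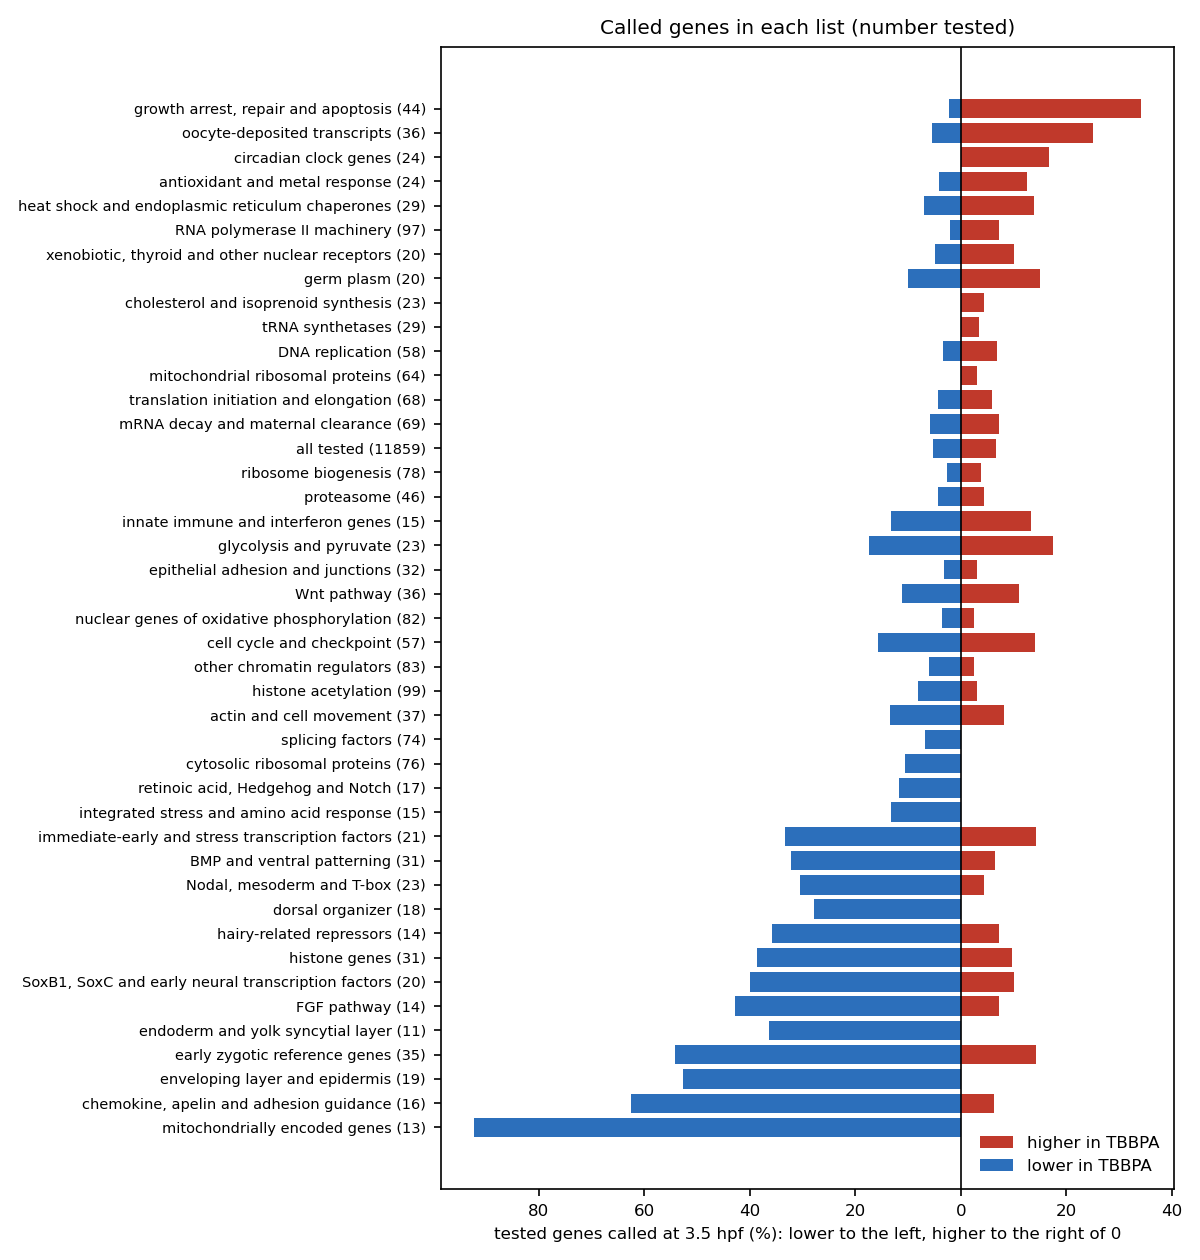
Percentage of tested genes called higher (red, to the right) or lower (blue, to the left) in TBBPA at 3.5 hpf in each gene list, with the number of genes tested in parentheses and all tested genes as a bar for comparison. The growth arrest, repair and apoptosis list has the highest share of rises (15 of 44), and the mitochondrial genome (12 of 13), guidance list (10 of 16) and enveloping layer (10 of 19) have the highest shares of falls apart from the early zygotic reference genes (19 of 35).

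Among noncoding genes 106 long intergenic RNA genes were tested, and 10 fell and 5 rose, a share of 14.2% that is near the background of 12.0%. BX530721.1 (chromosome 19, 24922531 to 24935266 in the tables) lay at 12.4, 10.9, 12.06 and 15.8 FPKM in DMSO and at 2.43, 3.92, 6.52 and 4.69 in TBBPA (log2 difference −1.40, SE 0.21, limma adjusted p = 0.00162), without overlap. BX927318.1, on the arm of chromosome 4 that carries the zinc finger genes, fell from 6.17 to 1.95 on average. CU571331.1 (chromosome 5, 11982364 to 12031921) rose by 0.56 on the log2 scale (adjusted p = 0.00195). Of 15 tested microRNA genes 1 fell and of 40 antisense genes 2 fell. The labels name both strand-specific and unstranded library chemistry, so reads of antisense and overlapping genes cannot be assigned to a strand with certainty.

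Most differences seen at 3.5 hpf were larger at 4.5 hpf, and a small set was larger at 3.5 hpf. The difference between the TBBPA effects at the 2 times was tested as the interaction of treatment and time over 16 libraries in limma, which called 52.8% of 12780 tested genes. Of the 1424 genes called at 3.5 hpf 1067 passed this test, 1005 with the larger effect at 4.5 hpf and 62 with the larger effect at 3.5 hpf, and for 357 it did not pass. For 63 genes the sign at 4.5 hpf was opposite. The genes with the larger effect at 3.5 hpf included growth arrest and AP-1 genes. For jun the log2 difference was 1.69 at 3.5 hpf and 0.56 at 4.5 hpf, with DMSO means of 2.41 and 11.8 FPKM and TBBPA means of 9.96 and 17.9 (interaction adjusted p = 5.04e-06). Tp53inp1 went from 1.46 to 0.72, with DMSO means of 5.40 and 15.8 and TBBPA means of 16.5 and 26.9 (adjusted p = 0.000267). Among falls, klf17, a Krüppel-like factor gene of the early embryo, had −0.94 at 3.5 hpf and −0.58 at 4.5 hpf (adjusted p = 0.00574), and tagapa −0.82 and −0.31.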

How the data were processed

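Total RNA of whole zebrafish embryos was sequenced in 24 libraries, of which the 8 of 3.5 hpf are compared. The authors aligned reads with HISAT2 (version 2.0.5) and counted them with featureCounts (version 1.5.0-p3), per the submitters' processing notes, and deposited FPKM values per gene. The genome build is not given in the sources used here. In each library the values were whole multiples of the value of 1 read (100% of values within 0.001 of a step), and the reads recovered in this way gave the depths. Genes at 1 FPKM in at least 4 of the 8 libraries were tested with limma (version 3.58.1, R 4.3.3; trended variances, 2-sided, Benjamini-Hochberg over all tested genes) on log2(FPKM+1), which understates the differences of low genes. Tested genes held 99.4% of reads. Shares of reads were compared by exact permutation (scipy 1.17.1). The scripts were tested on simulated data. Named by rule are the 20 genes that rose most and the 20 that fell most (protein coding, with a gene symbol, a mean of 5 FPKM in a group and no overlap), the called members of 42 lists with up to 3 uncalled members of highest level, and noncoding, long and class genes described after their values were seen. Of the 280 called list members the text prints only part, chosen after their values were seen, and few of the 108 that lost their call under an alternative, so the genes printed are more stable than the lists' calls as a whole. Some genes are not reported here. The comparison and the lists were chosen with earlier results of these data known. Of list symbols 1517 matched in the tables, 44 through an identifier table and 61 did not match. Alternatives covered scaling, pseudocount, level filter, model, replicate block and the omission of each library.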

Additional observations from a re-analysis of the deposited data

Results flagged for a closer look

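For part of the named genes, 88 groups of 4 libraries were checked for a library apart from the other 3, and 2 were found. By chance about 1 in 20 such groups is expected, so 2 of 88 is no excess. Gadd45aa stood at 1.93 FPKM in DMSO replicate 1, above 0.730 to 0.815 in the other DMSO libraries and below every TBBPA library. Net1 stood at 3.33 FPKM in TBBPA replicate 1, below 4.25 to 4.33 in the others.

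The effect of TBBPA differed between 3.5 and 4.5 hpf in 10 named genes whose effect was the larger at 3.5 hpf, by the limma test of the interaction (log2 effect at 4.5 hpf minus that at 3.5 hpf). The interaction was −1.13 for jun, −0.94 for plekhn1, −0.93 for fosab, −0.83 for gadd45aa, −0.74 for tp53inp1, −0.73 for rasl11b and −0.60 for igf2a, all higher in TBBPA at 3.5 hpf. It was 0.51 for tagapa, 0.36 for klf17 and 0.35 for usp9, all lower in TBBPA at 3.5 hpf. Igf2a and usp9 did not pass at 4.5 hpf (limma adjusted p = 0.0926 and 0.493). Usp9 is also 1 of the long genes described above. At 3.5 hpf DMSO replicate 1 was the lowest of its group (34.5 FPKM) and TBBPA replicate 4 the highest of its own (33.3).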

How the results depend on the processing

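Counts of calls over all genes and over the late-onset and cleared classes stayed within 1.5 times of the count as reported in all settings but 3 (a filter at 5 FPKM, and without TBBPA replicate 1 or 2); the falls among genes over 8 kb, given above, moved more. The number of late-onset genes that fell was 212 with a filter at 5 FPKM in place of 371 at 1 FPKM, since fewer genes are then tested. Without single libraries the total ran from 933 (without TBBPA replicate 2) to 1518 (without TBBPA replicate 4), rises from 508 to 767 (519 without TBBPA replicate 1), falls from 425 to 751, late-onset falls from 315 to 363, cleared rises from 163 to 202 and interaction calls from 6372 to 6706. Other settings gave totals of 1112 (no filter) to 1533 (voom). Rises made up 55.5% of calls, and 50.5% with median-of-ratios scaling, 51.1% with voom, 60.1% with TPM and 60.3% with total-count scaling. With the replicate block the total was 1502, of which 1256 were shared with the fit without it. Deviations of same-numbered libraries correlated at 0.128, 0.0081, −0.035 and 0.095, and those of differently numbered libraries at −0.154 to 0.048. Whether the numbers pair the samples cannot be told from these values. The difference in the share of reads was −0.618 to −0.511 percentage points for late-onset genes and 0.552 to 0.690 for cleared genes when a library was left out, each at p = 0.0571, the smallest 3 against 4 allow (exact permutation). An exact permutation by sign flips within the replicate block gave −0.558 and 0.621, each at p = 0.125, the smallest 4 pairs allow. Of 293 genes under the naming rule 185 kept their call in every one of the 18 settings that tested them, the 40 of largest difference among them, 108 lost it in at least 1, all of them list members, and 0 reversed. Such losses differed between lists. The growth arrest list kept 13 of 15 rises, the enveloping layer list 8 of 10 falls and the guidance list 8 of 10 falls. The cell cycle list kept 2 of 8 rises and 6 of 9 falls, and glycolysis 3 of 4 rises and 1 of 4 falls. Mitochondrially encoded genes kept 8 of 12 falls, and splicing factors 1 of 5. Leaving out genes tested through 1 group alone, chosen after seeing the data, gave 1376 calls, of which 333 were late-onset falls. With more higher than lower calls or the reverse, 2 lists changed: cell cycle (9 higher and 8 lower with TPM) and ribosome biogenesis (2 and 4 with voom, against 3 and 2).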
